A study of Homo sapiens with 20 samples.

Results

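The 8 immediate-early genes described here are FOS, FOSB and FOSL2 of the FOS family, JUN, JUNB and JUND of the JUN family, the zinc finger factor EGR1, and IER2. They were chosen by gene symbol, with earlier results of these data known. They make up 8 of the 57773 genes in each of 2 deposited RNA-seq count tables, and each symbol was found in both. The study asked how the histone methyltransferase EHMT1 (also called GLP), and its residues K450 and K451, shape transcription in LNCaP, an androgen-responsive human prostate adenocarcinoma line. The first table holds LNCaP cells transfected for 2 days with siRNA at 20 nM, either nontarget (siNTC) or directed at EHMT1 (siEHMT1), with 2 samples per group. The second holds 4 stable LNCaP lines made by lentiviral infection and puromycin selection, each carrying a doxycycline-inducible EHMT1 that is wild-type (WT) or has arginine in place of one lysine (K450R), of the next (K451R) or of both (K450RK451R). Each line received vehicle (Veh, labelled untreated) or 0.25 µg/mL doxycycline (Dox) for 2 days, with 2 columns per condition. There was 1 line per allele, every line kept its own endogenous EHMT1 gene, and no line without the EHMT1 construct was treated with Dox, so that Dox itself and the induced EHMT1 cannot be told apart.

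Immediate-early genes are switched on within minutes of a growth factor or stress signal, without new protein synthesis, and their mRNAs are short-lived. ERK and related kinases act through serum response factor and its ELK partners at CArG boxes, and through CREB at cAMP response elements, in the promoters of these genes. FOS and JUN proteins then pair into AP-1, a dimer that binds DNA and drives later genes in proliferation, migration and differentiation, while EGR1 binds GC-rich promoters.

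Promoter sequences are shown because they place the members in this scheme. The 500 bases before the transcript start of each member were searched on both strands of GRCh37 for the CArG box, for the full cAMP response element (CRE, TGACGTCA) and for the AP-1 site (TGACTCA or TGAGTCA). A CArG box lay in 2.4% of 19873 promoters of protein-coding genes, a CRE in 2.89% and an AP-1 site in 6.04%. EGR1 had 5 CArG boxes, FOS and FOSB had 1 each, and FOSB and JUND had 1 CRE each. FOSL2, JUN, JUNB and IER2 held none of these letters in this window, and no member held the AP-1 site. Variants of these motifs and sites outside the window were not searched, so an empty result does not mean that a promoter lacks such a site. The sequences below give the CArG box of FOS and of FOSB, those of EGR1 nearest to its start, and the CRE of JUND, with the matched motif in capitals and 20 bases on each side.
FOS CArG box, first base 314 before the start, chr14:75745197-75745246, plus strand: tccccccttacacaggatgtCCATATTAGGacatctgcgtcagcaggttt
FOSB CArG box, first base 274 before the start, chr19:45970960-45971009, plus strand: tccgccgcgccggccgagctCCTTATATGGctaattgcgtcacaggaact
EGR1 CArG box, first base 105 before the start, chr5:137801043-137801092, plus strand: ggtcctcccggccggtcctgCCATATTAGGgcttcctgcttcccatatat
EGR1 CArG box, first base 83 before the start, chr5:137801065-137801114, plus strand: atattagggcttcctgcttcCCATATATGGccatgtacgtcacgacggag
JUND CRE, first base 200 before the start, chr19:18392605-18392652, minus strand: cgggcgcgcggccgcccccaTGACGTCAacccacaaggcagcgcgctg

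The stable-line libraries totalled 4168199 to 6272708 counts per column. The columns of each condition are labelled as replicates 1 and 2, but differed by no more than counting noise (chi-square per degree of freedom 0.995 to 1.02), so they were summed to 1 sample per condition with 8436791 to 12407739 counts. The siRNA samples held 5593400 to 12438006 counts and differed within groups by more than counting noise (13.4 and 61.6). EHMT1 counts followed the labels, with 87.9 and 82.8 CPM (counts scaled to a common library size) in siNTC, 29.2 and 30.7 CPM in siEHMT1, 71 to 88.4 CPM in the lines with Veh and 661 to 841 CPM with Dox. All 9 luminal prostate markers were detected, and their summed level was 11531 to 12872 CPM in the stable lines and 5995 to 6301 CPM in the siRNA samples. The 12 matched markers of basal cells, fibroblasts, endothelium and leukocytes summed to 37.4 to 49 CPM and 26.2 to 34.9 CPM, with KRT5, TP63, COL1A2, CDH5 and PTPRC at 0 in every library. COL1A1 made up most of these sums, at 30.7 to 40.9 CPM in the stable lines and 15.3 to 17.4 CPM in the siRNA samples, and VWF read 3.33 to 16 CPM. With Dox 3 of the 9 luminal markers were called higher and none lower, beside 0.553% of all 14105 genes tested called higher and 1.47% called lower. None of the 2 tested markers of other cell types was called, and no gene of either list was called in the other comparisons. CPM values are scaled by TMM within each table, and their 95% intervals are exact Poisson intervals that cover counting error only.

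JUND was the most abundant member per length in the stable lines. Its mean level over the 4 Veh conditions was 538 RPKM (CPM per kilobase of transcript), against 207 for JUNB, 68.9 for JUN, 50.3 for FOS, 36.2 for IER2 and 14.3 for FOSL2. FOSB and EGR1 were close to absent, at 0.199 and 0.0617 RPKM. In siNTC FOS stood below IER2 and level with FOSL2, and the other well-counted members kept their order. There JUND had 43.4 RPKM, JUNB 26.2, JUN 16.9, IER2 16.6, FOSL2 4.67 and FOS 4.66. In bulk RNA a lower level in every cell and fewer cells with the transcript cannot be told apart.

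FOS (chr14:75745529-75748933, plus strand), the inducible founding partner of AP-1, varied more between the stable lines than any other well-counted member. Its level was 185 CPM in WT with Veh and 170 CPM with Dox. In K450R it was 119 CPM before and 74.6 CPM after induction. K451R had 73.8 and 38.7 CPM, and K450RK451R had 45.5 and 32.7 CPM. The lowest of the 8 conditions thus lay 5.66-fold under the highest, and both WT conditions lay above all others. In this order the counting intervals overlapped between WT with Veh and WT with Dox, between K450R with Dox and K451R with Veh, and among the lowest neighbours. Dox levels were lower than Veh levels within each line, by 8.07% in WT, 37.4% for K450R, 47.6% for K451R and 28.1% for the dual-lysine line K450RK451R.

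JUNB (chr19:12902300-12904129, plus strand), a JUN family member that pairs with FOS and can temper JUN activity, was the member whose change with Dox differed most between WT and the mutant lines. WT had 491 CPM with Veh and 487 CPM with Dox, values whose counting intervals overlapped. K450R went from 404 CPM with Veh to 303 CPM with Dox. K451R went from 302 to 171 CPM and K450RK451R from 321 to 177 CPM. The Dox level was therefore 0.953% lower than Veh in WT and 25, 43.3 and 44.8% lower in the mutants.

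JUN (chr1:59242517-59249720, minus strand), which gives AP-1 its classic dimer with FOS, moved in the same direction over a narrower range. With Veh and Dox it read 249 and 237 CPM in WT, and 250 and 206 CPM for K450R. The K451R line had 207 and 152 CPM, and the K450RK451R line 192 and 163 CPM. The highest and lowest condition differed 1.64-fold. The counting interval of the log2 ratio of Dox over Veh reached past 0 in WT (-0.07, interval -0.16 to 0.01) and lay below 0 in each mutant line, with the lowest value in K451R (-0.45, interval -0.55 to -0.36).

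JUND (chr19:18390504-18392432, minus strand), the JUN member that most cells express steadily, was the only one of the 6 well-counted members with a counting interval above 0 in any line. In WT it read 1135 CPM with Veh and 1241 CPM with Dox. K450R read 1108 and 1012 CPM, K451R 942 and 697 CPM, and K450RK451R 965 and 648 CPM. The log2 ratio of Dox over Veh was 0.13 in WT and -0.13, -0.43 and -0.57 in the K450R, K451R and K450RK451R lines.

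FOSL2 (chr2:28615315-28640184, plus strand), the FOS family member also known as FRA2, was the flattest. All 8 conditions lay between 79.5 and 103 CPM, a 1.3-fold range in which each condition overlapped its neighbour by counting interval. WT read 92.6 CPM with Veh and 93.6 CPM with Dox, K450R 103 and 89.5 CPM, K451R 93.7 and 79.5 CPM, and K450RK451R 93.7 and 89.6 CPM. The counting interval of the FOSL2 log2 ratio lay below 0 in K450R (-0.21, interval -0.35 to -0.07) and K451R (-0.24, interval -0.37 to -0.1). It reached past 0 in WT (0.01, interval -0.12 to 0.15) and K450RK451R (-0.06, interval -0.19 to 0.06). IER2 (chr19:13261225-13265725, plus strand), a nuclear regulator induced along with FOS, read 87.5 CPM with Veh and 83.8 CPM with Dox in WT. The K450R line had 83.2 and 69.2 CPM, the K451R line 61.3 and 53.2 CPM, and the K450RK451R line 73.5 and 47.3 CPM. Its largest step with Dox was the 35.6% lower level in K450RK451R. The step of IER2 in K451R differed between the columns, with a log2 ratio of -0.39 in the first and -0.01 in the second.

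**Figure D1:**
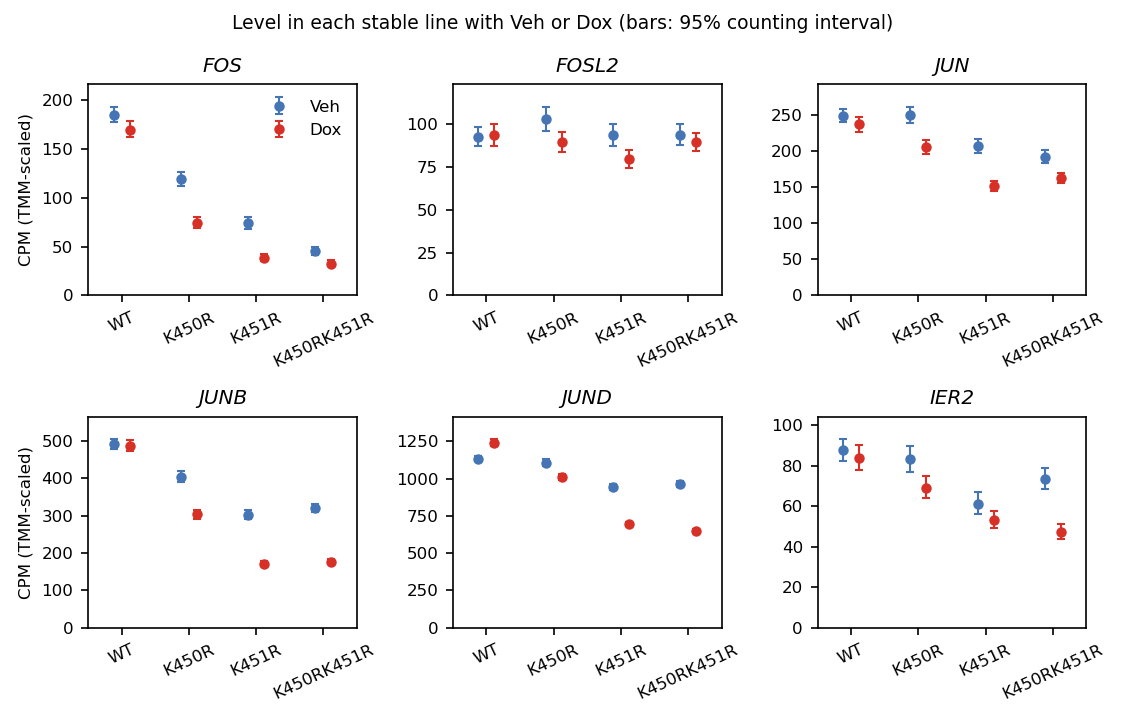
Level of the 6 well-counted members (TMM-scaled CPM, axis from 0) in the 4 stable lines with Veh (blue) or Dox (red), each point being 1 condition of summed columns and each bar its 95% Poisson counting interval. FOS stepped down from 185 CPM in WT with Veh to 32.7 CPM in K450RK451R with Dox, while FOSL2 stayed between 79.5 and 103 CPM.

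FOSB (chr19:45971253-45978437, plus strand) and EGR1 (chr5:137801168-137804992, plus strand) did not pass the low-count filter in the stable lines. FOSB had 3 to 9 reads per condition, or 0.232 to 0.98 CPM, and every condition overlapped its neighbours by counting interval. EGR1 had 2 reads in WT with Veh and 1 with Dox, none for K450R under either treatment, 0 and 2 for K451R, and 6 and 4 for K450RK451R. A count of 0 was read as up to 3 reads. That was 0.368 CPM in K450R with Veh, 0.32 CPM in K450R with Dox and 0.361 CPM in K451R with Veh. The upper ends of the 95% Poisson intervals of EGR1 there were higher, at 0.452, 0.393 and 0.444 CPM. Differences of these genes between conditions were not detectable at this depth. EGR1 is the member with the 5 CArG boxes described above.

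Over the 4 lines, FOS, JUNB, JUN and IER2 were lower with Dox than with Veh. In edgeR's quasi-likelihood test with line as a block, FOS changed by -0.53 ± 0.087 (log2 fold change ± SE; Benjamini-Hochberg adjusted p = 0.00057) and JUNB by -0.53 ± 0.087 (adjusted p = 0.000673). JUN changed by -0.27 ± 0.061 (adjusted p = 0.0157) and IER2 by -0.30 ± 0.078 (adjusted p = 0.0429). JUND (-0.26 ± 0.075, adjusted p = 0.0743) and FOSL2 (-0.13 ± 0.064, adjusted p = 0.367) did not pass. The count of 4 members lower and 0 higher among the 6 tested stands beside 1.47% of 14105 genes called lower and 0.553% called higher. The members were chosen with earlier results of these data known, so this contrast is a description and not a test. The median log2 fold change of the 6 was -0.28, against 0.005 over all genes tested. Each of these 4 genes was lower with Dox in all 4 lines, as were 9.72% of all genes tested. For JUNB in WT this direction rests on a log2 ratio of -0.01 (interval -0.07 to 0.04), which turned to 0.03 with library totals and to 0.01 in the second column alone, and IER2 in WT read 0 in the first column alone.

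The calls rested on the line block and on single lines to different degrees. FOS and JUNB passed with any 1 line left out (adjusted p 1.43e-06 to 0.0286 and 1.83e-08 to 0.0124), but not in DESeq2 (0.0846 and 0.209) and, like JUN and IER2, not without the line block (0.756 and 0.582, with 0.495 for JUN and 0.533 for IER2). JUN was lost without K450R (adjusted p = 0.133) or K451R (0.242), IER2 was lost without K450R (0.182), K451R (0.0835) or K450RK451R (0.321), in DESeq2 (0.143) and in limma-voom (0.0522), and JUND passed without WT (0.000101).

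**Figure D2:**
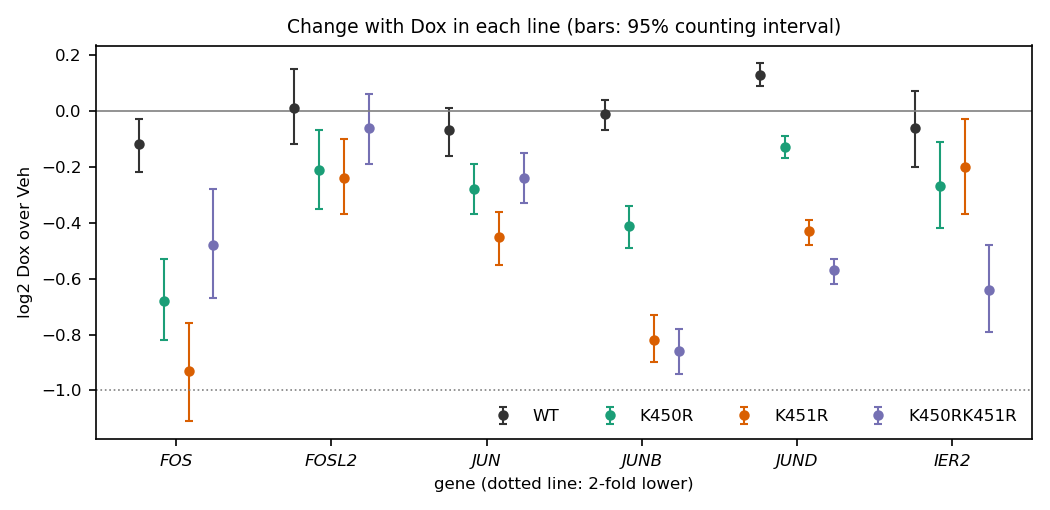
Log2 ratio of Dox over Veh for the 6 well-counted members in each line, with 95% counting intervals from the reads of the summed columns; the dotted line marks a level lower by 2-fold. WT (black) was the highest of the 4 lines for each gene, and no point reached the dotted line.

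Within lines, where each condition is 1 sample and no test was possible, none of the 6 members changed by 2-fold in either direction. The background of genes past 2-fold was 2.84% for WT, 3.65% for K450R, 3.02% for K451R and 3.75% for K450RK451R. The closest was FOS in K451R, with Dox at 0.524 of the Veh level (log2 ratio -0.93, interval -1.11 to -0.76). FOSB, with 9 reads for Veh and 3 for Dox in K450RK451R, gave a ratio of 0.256 whose log2 interval ran from -4.49 to 0.03.

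The change with Dox was lower in the 3 mutant lines than in WT for JUNB, by -0.70 ± 0.13 on the log2 scale (interaction test in edgeR, adjusted p = 0.0109). The same difference was -0.59 ± 0.15 for FOS (adjusted p = 0.113), -0.52 ± 0.12 for JUND (adjusted p = 0.0789), -0.32 ± 0.16 for IER2 (adjusted p = 0.711), -0.26 ± 0.12 for JUN (adjusted p = 0.698) and -0.20 ± 0.14 for FOSL2 (adjusted p = 0.837), none of which passed. The background for the JUNB call was 0.135% of 14105 genes lower in the mutants. With the summed columns, the change of WT lay above those of all 3 mutants for each of the 6 members, as it did for 24.7% of all genes. For FOSL2 this order was lost with library totals (log2 ratio 0.06 in WT, 0.07 in K450RK451R) and in the first column alone (-0.06 and 0.01). For IER2 it was lost in the second column alone (-0.13 in WT, -0.01 in K451R). WT gave 1 Veh and 1 Dox sample to this test and was assumed to vary like the mutant lines, and the JUNB call was lost with DESeq2 (adjusted p = 0.214). FOS passed without K450R (adjusted p = 0.00631) or K450RK451R (0.00135), and JUND without K450R (1.35e-07) or K451R (0.0182).

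The induced transgene and the base composition of the genes were set beside these changes. EHMT1 rose with Dox by 3.23 ± 0.072 on the log2 scale over the lines (adjusted p = 1.06e-22), and its rise in the mutants differed from that in WT by -0.20 ± 0.14 (adjusted p = 0.823). JUN, JUNB and JUND have a single exon, and JUND and JUNB have GC-rich transcripts (69.9 and 64.9% GC). The 181 well-counted coding genes with 1 exon had median log2 ratios of 0.063 to 0.163 over the lines, and the 1373 genes above 61.9% GC had medians of -0.017 to 0.069. The part of GC content and exon number in the changes of the members was not tested beyond a loess correction for GC content, chosen after seeing the data. With it the interaction also passed for FOS (adjusted p = 0.0312) and JUND (adjusted p = 0.00267).

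Before induction the lines already differed in FOS. Its Veh level averaged 106 ± 60.9 CPM (SD, n = 4 lines) and spanned 4.07-fold, a span reached by 0.0644% of the 10866 genes with a mean of at least 50 counts, whose median span was 1.23-fold. A span of at least 2-fold was seen for 2.22% of these genes, and FOS was the only member past it. JUNB spanned 1.63-fold (379 ± 86.8 CPM), IER2 1.43-fold (76.4 ± 11.6 CPM), JUN 1.3-fold (225 ± 29.7 CPM), JUND 1.21-fold (1037 ± 98.4 CPM) and FOSL2 1.11-fold (95.8 ± 4.94 CPM). With 1 line per allele, the allele and the derivation of each line cannot be told apart, and these spans carry no test.

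Silencing EHMT1 was followed by no called change in any of the 8 members. EHMT1 itself fell by 1.52 ± 0.11 on the log2 scale (adjusted p = 2.34e-07). In edgeR's test 0 of 8 members passed an adjusted p of 0.05, against 0.124% of 14532 genes, and 2 of 8 had an unadjusted p under 0.05, against 9.14% of all genes. Members called were also 0 in limma-voom. DESeq2 gave an adjusted p only to JUN (0.933) and JUND (0.7), neither of which passed, so the other members could not be called there. JUND read 84.2 and 83.2 CPM in siNTC and 74.2 and 61.5 CPM in siEHMT1 (log2 fold change -0.31 ± 0.11, adjusted p = 0.339). Without siEHMT1 replicate 1 the adjusted p of JUND was 0.0253. JUN read 59.8 and 50.5 CPM in siNTC and 63.9 and 67.2 CPM in siEHMT1 (0.23 ± 0.11, adjusted p = 0.528), the opposite sign to JUND. The groups did not overlap for JUND, JUN and JUNB, 3 of the 8 members, as they did not for 39.4% of all genes tested.

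The other 6 members had no called change after silencing either. FOS read 7.48 and 12.1 CPM in siNTC against 8.46 and 7.17 CPM in siEHMT1 (-0.27 ± 0.24, adjusted p = 0.776), and its groups overlapped. JUNB read 52.1 and 43.7 CPM against 43.5 and 41.2 CPM (-0.20 ± 0.12, adjusted p = 0.635), so that the nearest samples of its groups almost met. The remaining well-counted members overlapped between groups. IER2 read 37.8 and 32.1 CPM against 33.6 and 30.9 CPM (-0.14 ± 0.13, adjusted p = 0.788). FOSL2 read 29 and 33.7 CPM against 31.3 and 29 CPM (-0.04 ± 0.13, adjusted p = 0.958). FOSB, at 11 to 40 reads per sample, gave -0.16 ± 0.36 (adjusted p = 0.934), and EGR1, at 2 to 12 reads, gave 0.54 ± 0.81 (adjusted p = 0.889). The labels do not say whether the 2 samples of a group came from separate cultures, so these p-values measure the spread between the samples given.

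**Figure D3:**
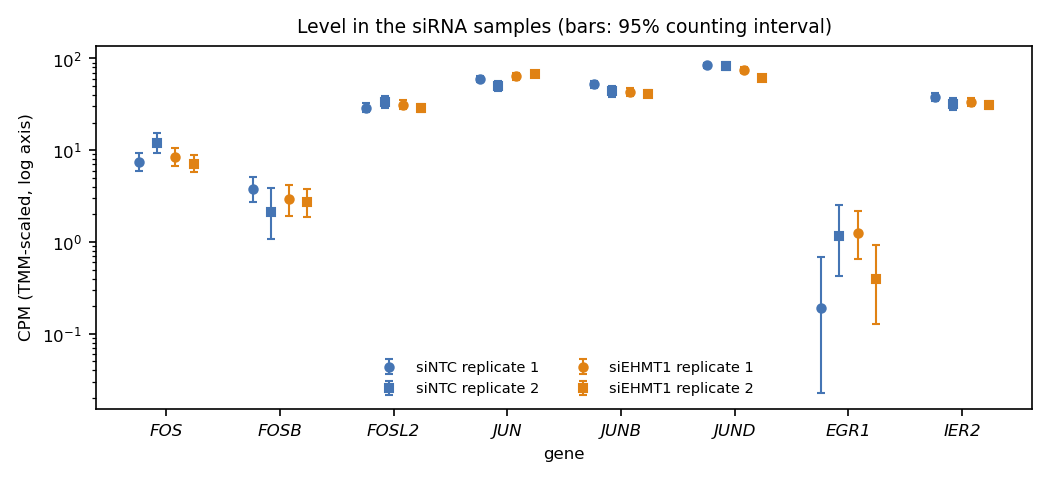
Level of the 8 members (TMM-scaled CPM, log axis) in the 4 siRNA samples, with siNTC in blue, siEHMT1 in orange, circles for replicate 1, squares for replicate 2 and bars for the 95% Poisson counting interval. JUND was between 61.5 and 84.2 CPM and EGR1 between 0.189 and 1.25 CPM.

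Levels of the 6 well-counted members were higher in the uninduced stable lines than in the siNTC cells. The mean of the 4 Veh conditions was 12.4 times the siNTC mean for JUND (1037 against 83.7 CPM), 10.8 times for FOS (106 against 9.81 CPM) and 7.93 times for JUNB (379 against 47.9 CPM). The ratio was 4.07 for JUN, 3.06 for FOSL2 and 2.19 for IER2. Each of these 6 lay past 2-fold, as did 7.8% of the 13617 genes that passed both filters, whose median log2 ratio was -0.09. FOSB and EGR1 went the other way, with 0.75 against 2.97 CPM and 0.194 against 0.682 CPM. The tables are separate experiments normalized separately, so the ratios are levels set side by side with no test. The paper kept the stable lines in tetracycline-free serum, which it does not state for the other LNCaP cells. Transfection, serum and the derivation of the lines therefore cannot be told apart. Genes above 61.8% GC had a median log2 ratio of 0.10.

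Other genes of the immediate-early pathway were read from 5 lists. The lists, too, were chosen with earlier results of these data known, so their counts and medians are descriptions. Of 11 other AP-1 and bZIP partners, 7 were tested, and with Dox 2 were called lower and 0 higher, with a median log2 fold change of -0.16. For this and the lists that follow, the shares over all genes tested were the 1.47% called lower and 0.553% called higher given above, and the median was 0.005. ATF3, a stress-induced partner of JUN, fell by 0.37 ± 0.061 (adjusted p = 0.000659), and the small MAF protein MAFF fell by 0.35 ± 0.091 (adjusted p = 0.0416). ATF3 read 336 and 300 CPM in WT with Veh and Dox, and 203 and 152 CPM in K450RK451R. Of 30 other early-response genes, 24 were tested, and 8 were called lower and 1 higher, with a median of -0.17.

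The 8 early-response genes called lower were the orphan nuclear receptor NR4A1 (-0.51), the Krüppel-like factors KLF6 (-0.43) and KLF10 (-0.45), the mRNA decay factor ZFP36 (-0.47), the stress sensor GADD45B (-0.64), the phosphatase subunit PPP1R15A (-0.64), the pseudokinase TRIB1 (-0.35) and the nuclear protein CSRNP1 (-0.44). GADD45B was the clearest of them, with an SE of 0.087 and an adjusted p of 5.37e-05. WT read 204 CPM with Veh and 190 CPM with Dox, K450R 156 and 86.9 CPM, K451R 125 and 68 CPM, and K450RK451R 96.7 and 55.7 CPM. MYC, the growth-promoting factor, was the early-response gene called higher, by 0.46 ± 0.061 (adjusted p = 3.19e-05), with 107 and 134 CPM in WT and 141 and 209 CPM in the K450RK451R line.

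The feedback inhibitors split in direction. Of 16 listed, 13 were tested, and 3 were called lower and 1 higher, with a median of -0.12. The MAPK phosphatases DUSP1 (-0.51 ± 0.11, adjusted p = 0.0121) and DUSP5 (-0.68 ± 0.15, adjusted p = 0.0121) fell, along with ZFP36, which stands in both lists, while the ERK phosphatase DUSP4 rose by 0.48 ± 0.06 (adjusted p = 1.88e-05). Among 15 AP-1 and EGR1 targets only 6 were tested, and FLNA, an actin crosslinker, was the 1 called (-0.24 ± 0.053, adjusted p = 0.0106). Of the 20 kinases and factors that act at the serum response element, all were tested and 0 were called in edgeR, with a median of 0.04. The members of that list with the largest changes with Dox were ELK3 (0.41 ± 0.24, adjusted p = 0.476) and SRF (-0.25 ± 0.074, adjusted p = 0.0775).

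The difference of the mutants from WT passed the edgeR interaction test for DUSP1 (-0.92 ± 0.16, adjusted p = 0.0048), 1 of 13 feedback inhibitors tested. It also passed for GADD45B (-0.75 ± 0.13, adjusted p = 0.00181), 1 of 24 early-response genes tested, and for no other gene of the 5 lists. Over all 14105 genes tested, 0.135% were called lower in the mutants. DUSP1 read 513 and 579 CPM with Veh and Dox in WT, against 595 and 502 CPM for K450R. The K451R line had 449 and 229 CPM and the K450RK451R line 450 and 226 CPM, so that WT and the mutants went in opposite directions as they did for JUND. After EHMT1 silencing, 0 genes of the 5 lists were called, beside 0.124% of all 14532 genes tested.

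**Figure D4:**
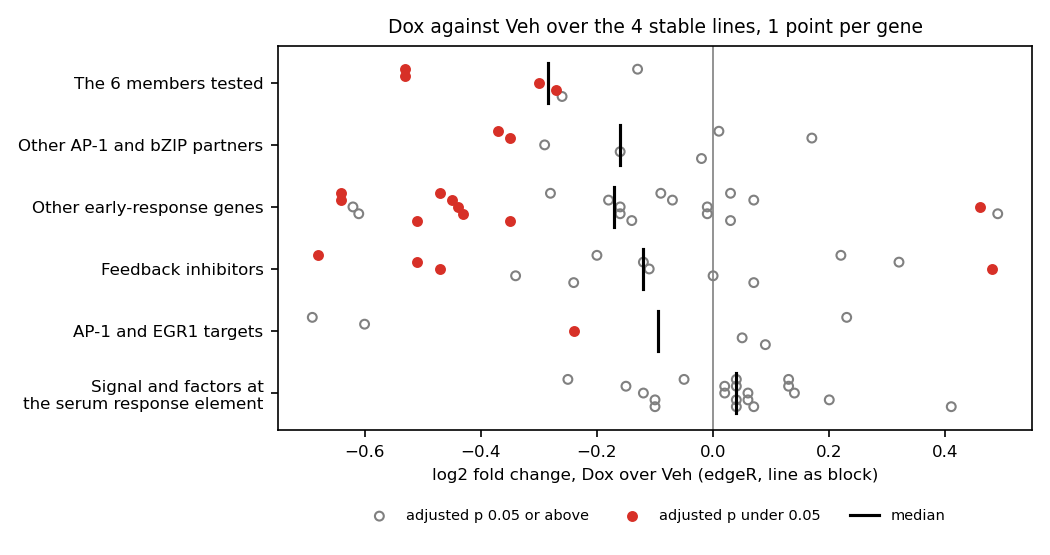
Log2 fold change with Dox over the 4 lines (edgeR, line as block) for the 6 members tested and the tested genes of the 5 pathway lists, 1 point per gene, red where the adjusted p was under 0.05, with a black bar at each median. The medians were -0.28 for the members, -0.17 for other early-response genes and 0.04 for the kinases and factors at the serum response element.

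Across the 8 stable-line conditions the well-counted members followed each other, FOSL2 least. The Pearson correlation of log2 CPM was 0.976 between JUNB and JUND, 0.961 between JUN and JUNB, 0.931 between FOS and JUN, and 0.543 between FOS and FOSL2, as a description over 8 conditions that share lines. Of 10860 other genes with a mean of at least 50 counts, those most like FOS were RIOK3 (0.983), NFIL3 (0.98) and PPP1R3B (0.98), and 186 genes exceeded 0.9. Those most like JUN were GABARAPL1 (0.99), RASD1 (0.989) and the early-response gene CSRNP1 (0.986), with 219 above 0.9. For EGR1, whose highest condition had 6 reads, CLASP2 (0.992), CHERP (0.956) and DSG2 (0.952) ranked first, a ranking that rests on those few reads. PPP1R3B, a glycogen-targeting phosphatase subunit, ran from 224 CPM in WT with Veh to 112 CPM in K450RK451R with Dox.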

How the data were processed

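RNA-seq libraries were made by the authors from total RNA with a stranded kit and sequenced as single-end reads. The submitters' processing notes name FastQC 0.11.9, STAR 2.7.2 and featureCounts 1.6.4 with hg19 (GRCh37). The strand setting and the annotation release are not given in the sources used here, so reads of a gene and of an overlapping antisense gene cannot be told apart. The deposited tables hold the counts of reads per Ensembl gene, not normalized, for 20 samples in 10 conditions, and columns were assigned to samples from their headers.

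Counts of the 2 columns of each stable-line condition were summed, since these columns, labelled as replicates, agreed within sampling noise and were counted as 1 sample. Total counts were 8436791 to 12407739 per summed condition and 5593400 to 12438006 per siRNA sample. For the tests, counts were filtered with filterByExpr and then scaled by TMM. All genes kept were tested with edgeR's quasi-likelihood test (edgeR 4.0.16, whose default there is the legacy method, in R 4.3.3), with Benjamini-Hochberg adjustment. CPM levels and ratios within lines used TMM factors computed before filtering. The siRNA groups were compared without a block, Dox with Veh with line as a block, and the mutant lines with WT by an interaction term. SE is the log2 fold change divided by the square root of F. RPKM used the canonical transcript lengths of GENCODE on GRCh37, from which the promoters were also taken. Within lines, log2 ratios have exact conditional 95% intervals of the reads, and a count of 0 was read as up to 3 counts. Settings tried instead were DESeq2 1.42.0, limma-voom (limma 3.58.1), other normalizations, other filters, no line block, a replicate block, leaving out each sample or line, library totals, single columns and, after seeing the data, a GC correction (loess, span 0.5) and edgeR without its legacy option.

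Genes named are the 8 members, EHMT1, in each pathway list the genes with an adjusted p under 0.05 in a tested comparison or else the 2 with the largest change among those with a mean of at least 50 counts, and the 3 genes whose log2 CPM correlated best with FOS, JUN or EGR1. Marker lists held luminal prostate genes and basal, fibroblast, endothelial and leukocyte genes. The members and lists were chosen with earlier results of these data known. The fits were tested on simulated counts with a fixed spread between samples and 200 genes changed by 1 on the log2 scale. At an adjusted p under 0.05 they recovered 98.5% of these genes for silencing and 100% for Dox against Veh. For the interaction they recovered 46%, so a change of that size can fail to pass there. All changed genes had an expected mean above 50 counts. Smaller changes, and changes in genes with fewer counts, were not simulated, so these shares do not cover them.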

Additional observations from a re-analysis of the deposited data

Results flagged for a closer look

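The difference between the Dox effects of the 3 mutant lines and of WT passed its test for JUNB, at -0.70 on the log2 scale (edgeR interaction test, adjusted p = 0.0109). Dox was below Veh in 3 of 3 mutant lines by 25 to 44.8%, and in WT by 0.953%. Among the levels of FOSL2 with Veh in the 4 lines, K450R stood apart at 103 CPM from 92.6, 93.7 and 93.7 CPM, with its gap to the nearest line making up 0.897 of the whole range. The counting interval of K450R (96.3 to 110 CPM) nevertheless overlapped that of each other line. In all, 22 sets of 4 lines were examined for a line that stood apart, and chance flags about 1 in 20 of such sets.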

How the results depend on the processing

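Every value of FOS, JUNB, JUN, JUND, IER2 and FOSL2 for Dox against Veh kept its sign under the 14 alternatives, and so did every interaction under 11. FOS ranged from -0.71 to -0.41 and JUNB from -0.71 to -0.42, with 12 of 14 alternatives passing for each, against 11 for JUN, 6 for IER2, 3 for JUND and 1 for FOSL2. The interaction of JUNB ranged from -0.84 to -0.62 and passed in 10 of 11.

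Members called for Dox against Veh were 4, against 1 in DESeq2, 0 without the line block and 2 to 5 without 1 line. Genes called were 286, against 140 in DESeq2, 4 without the line block and 97 to 472 without 1 line (472 without WT, 114 without K450R, 97 without K451R). For the interaction, 1 member and 20 genes were called. DESeq2 called 0 members, but it gave an adjusted p only to JUN, JUNB and JUND, so FOS, FOSL2 and IER2 could not be called there. Calls were 3 members and 43 genes in limma-voom, 2 members without the legacy option, and 2 members and 47 genes without a filter. They were 3 members and 43 genes after the GC correction, and 2 to 3 members and 32 to 105 genes without 1 mutant line. After silencing, 18 genes were called, against 109 without a filter and 42 to 237 without 1 sample, where 0 to 1 members were called (JUND without siEHMT1 replicate 1). Without 1 siRNA sample, FOS ranged from -0.65 to 0.06, FOSB from -0.43 to 0.37, FOSL2 from -0.17 to 0.06, JUNB from -0.30 to -0.06, IER2 from -0.23 to -0.01, JUN from 0.14 to 0.36, JUND from -0.45 to -0.18 and EGR1 from -0.58 to 2.00 (it did not pass the filter without siEHMT1 replicate 1). Without siNTC replicate 1, FOSB (0.37) and EGR1 (-0.58) changed sign. Without siNTC replicate 2, FOS (0.06) and FOSL2 (0.06) changed sign, and so did FOSL2 (0.01) without siEHMT1 replicate 2. The cause was not tested.

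With the replicate number as a block, 99 genes and 0 members were called after silencing. The samples share only a number, and the deviations of same-numbered samples correlated at -0.00226. With the 16 columns as separate samples and the line and replicate block, 1867 genes and 6 members were called for Dox, a count that treats columns of 1 sample as replicates. With library totals in place of TMM, the log2 ratio in K450RK451R was 0.07 for FOSL2, -0.11 for JUN, -0.73 for JUNB and -0.44 for JUND, and in K451R -0.34 for JUN, -0.71 for JUNB and -0.32 for JUND. The low counts of FOSB and EGR1 limit what can be said of them.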
